A study of Mus musculus with 8 samples.

Results

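Goblet cells of the mouse colon make the mucus that keeps bacteria away from the epithelium, and 10 genes of these cells were followed here in a mouse study of non-alcoholic steatohepatitis (NASH) and bovine colostrum vesicles. The 10 genes were Muc2, Clca1, Fcgbp, Zg16, Tff3, Retnlb, Spink4, Agr2, Spdef and Creb3l1, taken by symbol and matched to their NCBI gene identifiers among the 45777 in the table. All 10 were found, and all 10 reached 1 FPKM (sequenced fragments divided by transcript length and by library size) in at least 1 colon library, as did 15245 genes in all. The study sequenced whole liver and colon tissue of control mice, of a NASH group, and of 2 groups labelled by vesicle dose, low and high (EVs, extracellular vesicles of bovine colostrum). The design text speaks of a NASH mouse model and of the effects of the vesicles on it. That the EV groups were NASH animals is the reading used here, and the labels do not state it group by group. The sources used here do not give strain, sex, age, diet, how NASH was induced, vesicle amounts, treatment time or the number of animals behind a library.

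There was 1 library for each tissue and group, so 4 colon libraries carry the results and 4 liver libraries stand beside them. Without replicates no value has an error, no test on genes was possible, and each ratio compares 2 libraries rather than 2 conditions. A difference is called 2-fold where the log2 ratio of (FPKM + 1) was 1 or more in size, a rule of size and not a test. In whole tissue, fewer goblet cells and less RNA per goblet cell cannot be told apart.

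Goblet cells store mucin in granules and release it by exocytosis, after which the gel unfolds and stays attached to the epithelium as a dense inner layer. The gel is built from MUC2, which forms disulfide-linked networks in the endoplasmic reticulum and Golgi and is heavily O-glycosylated. Other goblet products are secreted with it: CLCA1 is a metalloprotease that cuts MUC2, FCGBP is a protein of the gel with domains like those of mucins, ZG16 is a lectin that binds the wall of Gram-positive bacteria, TFF3 is a trefoil peptide of epithelial repair, and RETNLB (RELM-beta) is an antibacterial protein induced by type 2 cytokines and by bacteria. AGR2 is a disulfide isomerase needed to fold MUC2, SPDEF is an ETS transcription factor of goblet cell maturation, and CREB3L1 (OASIS) is a transcription factor held in the endoplasmic reticulum membrane until it is cut.

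Some facts of the colon libraries touch every ratio below. Summed FPKM lay between 797063 and 916950, between 13863 and 14480 genes reached 1 FPKM, and the read depth is unknown. The NASH library held RNA of male accessory glands: 12 seminal vesicle and prostate genes, a list written after some of its values were seen, made up 4.80% of its protein-coding FPKM and at most 1.70e-05% in the other 3 colon libraries. Of 7 adipocyte markers 6 were kept, and those 6 were 2-fold higher in the NASH library than in control (median log2 ratio 1.74), with a summed level of 309.6 FPKM against 67.99 to 144.8 in the other colon libraries. Among them Ucp1, the uncoupling protein of brown fat, was at 15.2 FPKM in NASH and listed at 0 in the other 3. Anterior Hox genes, which mark position along the body axis, were 2-fold higher in 6 of 9 (median 1.24). Posterior Hox genes had 0 of 6 kept members 2-fold apart. Over all 15245 kept genes, 2.43% were 2-fold higher and 1.97% lower in the NASH library than in control. The high dose library held pancreatic enzyme RNA, with 9 markers summing to 3147 FPKM against 83.7 to 212 in the other 3. Epithelial markers had none of 12 members 2-fold apart between NASH and control (median 0.06), and Epcam, the general epithelial adhesion molecule, was at 627, 591, 784 and 712 FPKM in control, NASH, low dose and high dose. With libraries scaled to their protein-coding FPKM without the accessory gland genes, the median of the goblet genes was -0.95 for NASH over control, against -1.13 as deposited. The part of the other differences in the goblet gene values was not tested.

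The 10 genes are spread over the genome and form no cluster. On GRCm38.p6, Fcgbp (gene ID 215384, chr7:28071236-28120864), Zg16 (69036, chr7:127050156-127052675) and Muc2 (17831, chr7:141690340-141754691) share a chromosome but lie far apart, as do Spdef (30051, chr17:27714446-27731003) and Tff3 (21786, chr17:31125306-31129611). Creb3l1 is at chr2:91982328-92024170 (26427), Clca1 at chr3:145004537-145032776 (23844) and Spink4 at chr4:40920056-40931395 (20731). Agr2 is at chr12:35992925-36004081 (23795) and Retnlb at chr16:48816856-48818892 (57263).

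RefSeq promoter windows of GRCm38.p6 were found for 4 of the 10 genes, Muc2, Fcgbp, Agr2 and Spdef. All 4 are shown, to set Fcgbp and Agr2, which were 2-fold lower in the NASH library than in control, beside Muc2 and Spdef, which were not. The 250 bases before the start site are printed 5′ to 3′ on the strand of the gene. Capitals mark matches, on either strand, to the motifs described after the sequences, apart from GGAT. The Spdef window belongs to a start site inside the annotated span of the gene.
Muc2, chr7:141690090-141690339, plus strand: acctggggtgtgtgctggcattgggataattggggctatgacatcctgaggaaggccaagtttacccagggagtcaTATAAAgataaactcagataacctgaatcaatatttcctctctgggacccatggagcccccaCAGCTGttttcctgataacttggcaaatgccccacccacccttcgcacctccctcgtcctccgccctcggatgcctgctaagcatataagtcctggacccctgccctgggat
Fcgbp, chr7:28070986-28071235, plus strand: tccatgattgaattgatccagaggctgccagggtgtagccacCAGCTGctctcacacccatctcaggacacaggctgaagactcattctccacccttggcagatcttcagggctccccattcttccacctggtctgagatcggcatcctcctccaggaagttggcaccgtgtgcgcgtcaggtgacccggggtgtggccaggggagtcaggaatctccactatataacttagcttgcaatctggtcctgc
Agr2, chr12:35992675-35992924, plus strand: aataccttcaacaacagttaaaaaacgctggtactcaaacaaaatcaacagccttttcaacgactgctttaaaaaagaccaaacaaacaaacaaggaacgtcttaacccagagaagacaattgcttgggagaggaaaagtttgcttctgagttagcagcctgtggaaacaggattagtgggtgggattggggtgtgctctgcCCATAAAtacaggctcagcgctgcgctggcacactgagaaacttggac
Spdef, chr17:27728952-27729201, minus strand: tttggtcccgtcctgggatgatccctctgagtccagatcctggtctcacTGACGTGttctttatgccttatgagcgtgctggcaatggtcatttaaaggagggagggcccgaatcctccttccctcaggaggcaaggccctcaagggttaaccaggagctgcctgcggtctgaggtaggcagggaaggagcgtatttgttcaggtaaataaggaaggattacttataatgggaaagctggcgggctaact

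Motifs were searched in windows of 250 bases before and 50 after the start, and a match is a run of letters, not a bound site. The E-box CAGCTG, of the kind bound by the secretory lineage factor ATOH1 and by other helix-loop-helix factors, began 112 bases before the start of Muc2 and 208 before that of Fcgbp, and 16.3% of all 32851 windows hold it. The second E-box searched, CAGATG, had no match (17.2% of all windows). TGACGTG, an element of the unfolded protein response and of CREB3-family factors, was found in Spdef (201 bases before the start) and in 2.01% of all windows. The CDX motif TTTATNG was matched in Agr2 on the opposite strand (48 bases before the start, 10.9% of all windows) and TATAAA in Muc2 (174 bases before, 13.6%). GGAT, the short core that SPDEF favours, was in 4 of 4 windows, but also in 79.6% of all windows, and is left in lower case. The longer ETS motif CGGAA (29.9% of all windows) had no match in these 4, nor had the forkhead motif TGTTTAC (3.65%) and the STAT motif (6.95%). No motif searched was in both Fcgbp and Agr2 and absent from Muc2 and Spdef.

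In the colon of the NASH group the secreted goblet proteins other than MUC2 had less RNA than in the control colon, Muc2 itself did not, and the transcription factors Spdef and Creb3l1 stood above control. Clca1 and Retnlb lay furthest below control, at 0.165 and 0.108 of the control FPKM. In both EV libraries Clca1, Retnlb, Fcgbp, Spink4, Zg16, Tff3 and Agr2 were above the NASH library again. Zg16 and Tff3 were above control in the low dose library (log2 0.41 and 0.45) and close to it in the high dose library (0.03 and 0.06). Clca1, Retnlb, Fcgbp, Spink4 and Agr2 were below control in both EV libraries. Summed over the 10 genes, 17389 FPKM in control stood against 7100 in NASH, 15189 in the low dose and 13697 in the high dose library, which is 4.71%, 2.08%, 3.86% and 3.81% of the protein-coding FPKM of each library.

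**Figure D1:**
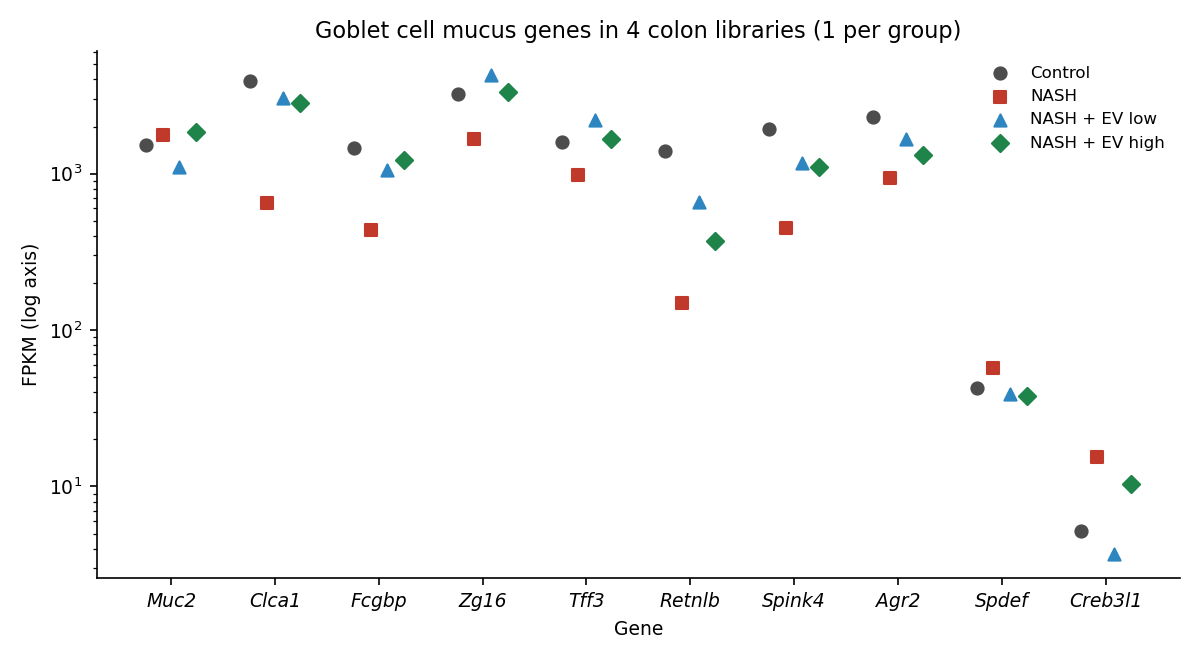
FPKM of each goblet gene on a log axis, with 1 point per colon library (control, NASH, EV low dose, EV high dose) and no error since each group has 1 library. For Clca1, Fcgbp, Zg16, Tff3, Retnlb, Spink4 and Agr2 the NASH point is lowest of the 4, whereas for Spdef and Creb3l1 it is highest.

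Muc2, the gel-forming mucin, was at 1519 FPKM in control, 1760 in NASH, 1097 in the low dose and 1854 in the high dose library. The low dose library was the lowest, and NASH and the high dose lay within 1.22-fold of control. The log2 ratio was 0.21 for NASH over control, -0.68 for low dose over NASH and 0.07 for high dose over NASH. As deposited, no 2 libraries were thus 2-fold apart, and the highest exceeded the lowest 1.69-fold. Relative to epithelial markers, Muc2 was 2-fold lower in the low dose than in the NASH library. The gel-forming mucins of stomach and airway that were matched, Muc5ac, Muc5b and Muc6, stayed below 1 FPKM in each of the 4 colon libraries.

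Clca1, the MUC2-cutting metalloprotease, was at 3915 FPKM in control, 648 in NASH, 3022 in the low dose and 2807 in the high dose library. The NASH library stood alone, while the other 3 were within 1.39-fold of each other. Its log2 ratio was -2.59 for NASH over control, 2.22 for low dose over NASH and 2.11 for high dose over NASH. By level Clca1 was the 4th protein-coding gene of the control colon and the 70th of the NASH colon.

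Fcgbp, which encodes the other large protein of the gel, was at 1462 FPKM in control, 438 in NASH, 1059 in the low dose and 1216 in the high dose library. As for Clca1, NASH was the low library and both EV libraries lay between NASH and control. The log2 ratios were -1.73, 1.27 and 1.47 for NASH over control, low dose over NASH and high dose over NASH. Its longest annotated transcript, 7928 bases, is the longest among the 9 members that have a usable length.

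Zg16, the peptidoglycan-binding lectin, was at 3236 FPKM in control, 1668 in NASH, 4287 in the low dose and 3314 in the high dose library. It was among the 9 most abundant protein-coding transcripts in all 4 colon libraries. NASH over control was just inside the 2-fold line (log2 -0.96), low dose over NASH was past it (1.36), and high dose over NASH was just inside (0.99). The low dose library was above control by 0.41.

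Tff3, the trefoil peptide, had a similar order at smaller size, with 1604 FPKM in control, 982 in NASH, 2194 in the low dose and 1672 in the high dose library. NASH over control stood at -0.71, low dose over NASH at 1.16 and high dose over NASH at 0.77. It was the sole goblet gene above 1 FPKM in liver, where it was at 4.48, 2.12, 3.93 and 2.53 FPKM in the control, NASH, low dose and high dose libraries. In both tissues the NASH library was thus the lowest of the 4.

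Retnlb, the RELM-beta gene, had the widest range of the 10 genes, at 1386 FPKM in control, 149 in NASH, 658 in the low dose and 371 in the high dose library. The 4 libraries fell in the order control, low dose, high dose, NASH. NASH over control stood at -3.21, low dose over NASH at 2.13 and high dose over NASH at 1.31. Retnlb was also the sole member 2-fold below control in an EV library, at -1.07 in the low dose and -1.90 in the high dose library.

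Spink4, a Kazal-type protease inhibitor of goblet cells, was at 1917 FPKM in control, 447 in NASH, 1165 in the low dose and 1097 in the high dose library. The EV libraries were close to each other and stood between NASH and control. The log2 ratios were -2.10 for NASH over control, 1.38 for low dose over NASH and 1.29 for high dose over NASH.

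Agr2, the disulfide isomerase, was at 2303 FPKM in control, 934 in NASH, 1666 in the low dose and 1318 in the high dose library. NASH over control was past 2-fold (-1.30) and both EV ratios over NASH were not (0.83 and 0.50). The high dose library was below control by 0.81 on the log2 scale, the same distance as for Spink4.

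Spdef, the goblet ETS factor, was at 42.7 FPKM in control, 57.2 in NASH, 38.8 in the low dose and 37.9 in the high dose library. NASH was the highest library (log2 0.41 over control) and both EV libraries were close to control (-0.14 and -0.17). Creb3l1, the membrane-held factor, was at 5.21 FPKM in control, 15.3 in NASH, 3.71 in the low dose and 10.3 in the high dose library. It was 2-fold higher in NASH than in control (1.39), 2-fold lower in the low dose than in the NASH library (-1.79), and within 2-fold for high dose over NASH (-0.53). Spdef is also made by prostate epithelium, and the NASH library was the one that held accessory gland RNA. The part of that RNA in the Spdef and Creb3l1 levels was not tested.

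Counted together, 5 of the 10 genes were 2-fold lower in NASH than in control and 1 was 2-fold higher, with 4 within 2-fold and a median log2 ratio of -1.13. Zg16 passes the line as a sixth lower gene with median-of-ratios scaling (-1.07) and relative to the median kept gene or to epithelial markers (-1.02 for both). Over all 15245 kept genes, 1.97% were 2-fold lower and 2.43% higher, and the median was 0.06. Among the 616 protein-coding genes that reached 100 FPKM in some colon library, the range in which 8 of the members lie, 12.0% were 2-fold lower and 3.57% higher. For low dose over NASH, 6 members were 2-fold higher and 1 lower (median 1.21), against 0.905% and 1.95% of all genes and 3.73% and 3.08% of the 616. For high dose over NASH, 4 were higher and none lower (median 0.88), against 1.1% and 1.43% of all genes and 4.87% and 3.41% of the 616. These comparisons share the NASH library, so a low value there enters each of them. The 616 include accessory gland genes that reached 100 FPKM only in the NASH library, such as Svs4 and Svs5. They also include pancreatic genes that did so only in the high dose library, such as Prss2 and Pnlip. Genes of both kinds enter the shares of the 616 that were 2-fold apart.

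**Figure D2:**
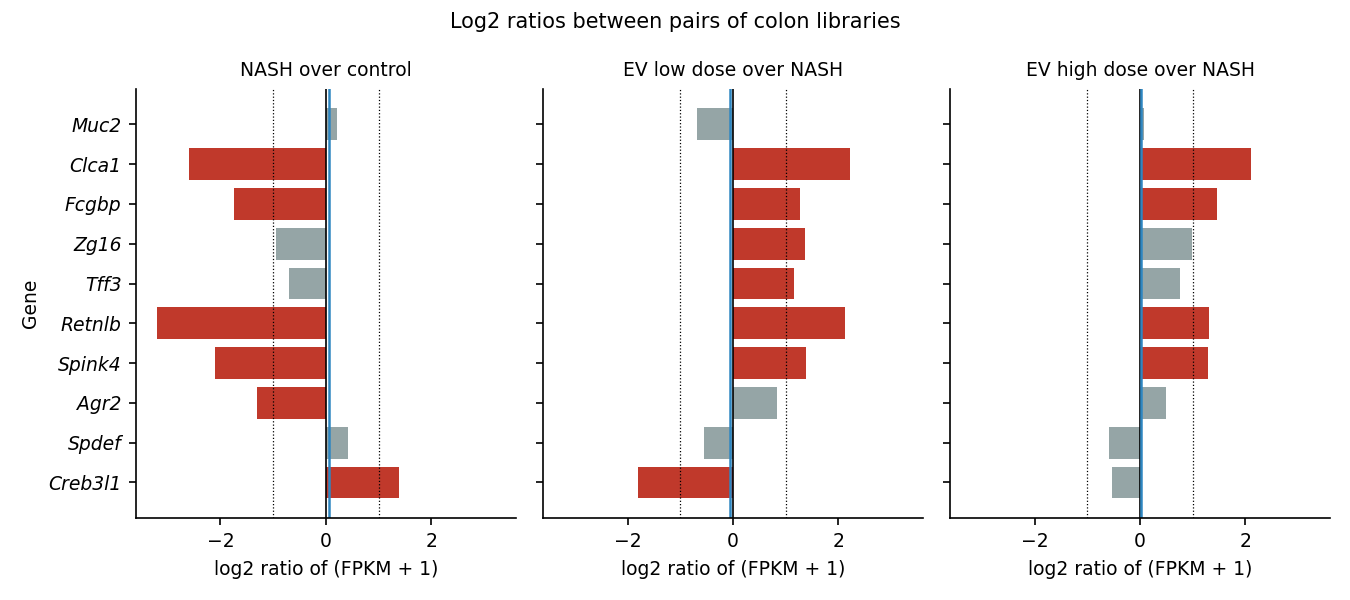
Log2 ratios of (FPKM + 1) of the 10 goblet genes for 3 comparisons, namely NASH over control and each EV dose over NASH. Red bars are 2-fold or more (dotted lines), grey bars are within 2-fold, and the blue line is the median of all 15245 kept genes. Clca1, Fcgbp, Retnlb and Spink4 are red in each panel, pointing down in the first and up in the other 2.

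The comparisons without the NASH library showed smaller differences. For low dose over control the median of the members was -0.43 with 1 of 10 2-fold lower (Retnlb) and none higher, where 1.74% and 1.15% of all genes, and 7.14% and 1.14% of the 616, were 2-fold lower and higher. For high dose over control it was -0.22, again with Retnlb as the 1 gene 2-fold lower, against 1.27% lower and 1.33% higher over all genes and 5.19% and 3.57% over the 616. Between the doses, Creb3l1 was 2-fold higher in the high dose library (1.27), the other 9 were within 2-fold and the median was -0.10, where 0.872% of all genes were higher and 0.682% lower, and 3.41% and 0.649% of the 616. Retnlb was next, at -0.83, and Muc2 at 0.76.

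The makeup of the goblet RNA also differed between libraries. FPKM divides by transcript length, but the transcript model used for Muc2 is not known, so the levels relative to Muc2 are uncertain as absolute ratios and are given to be compared between libraries. Muc2 made up 8.73% of the summed FPKM of the 10 genes in control, 24.8% in NASH, 7.22% in the low dose and 13.5% in the high dose library. Clca1 went the other way, at 22.5%, 9.12%, 19.9% and 20.5%. The FPKM of Clca1 divided by that of Muc2 was 2.58 in control, 0.368 in NASH, 2.76 in the low dose and 1.51 in the high dose library. For Retnlb this ratio was 0.912, 0.0848, 0.600 and 0.200. Transcript length, described next, also moved with the ratios between libraries. Agr2 kept 13.2% of the sum in both the control and the NASH library.

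**Figure D3:**
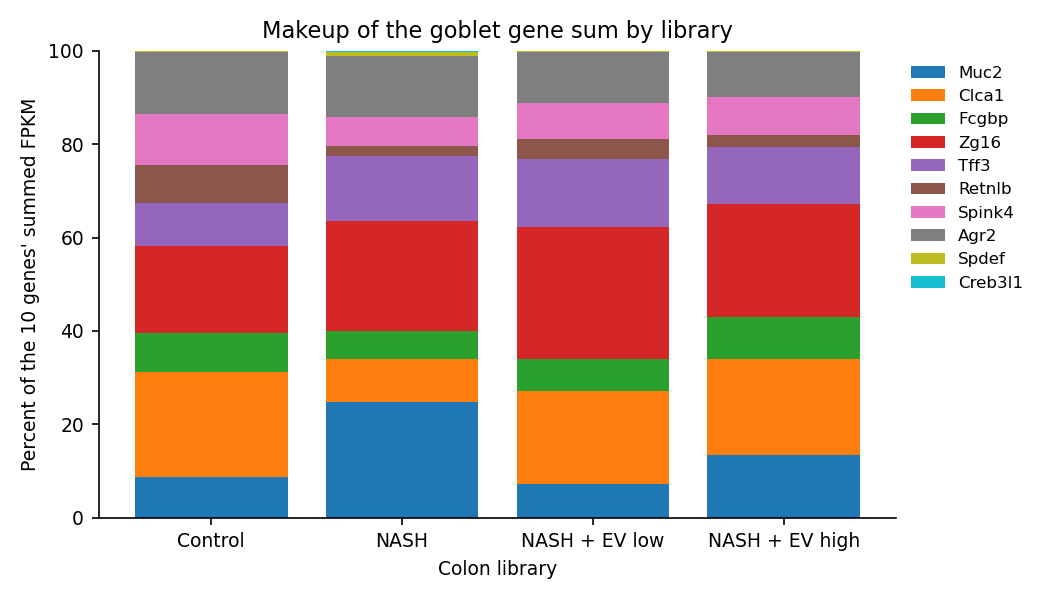
Each goblet gene as a percent of the summed FPKM of the 10 genes, in 1 bar per colon library. The Muc2 part is 24.8% in NASH and 7.22% to 13.5% elsewhere, and Zg16 is the largest part in both EV libraries.

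Kept protein-coding genes were split by their longest GENCODE transcript into 20 groups of about equal gene number. The median NASH over control ratio was -0.28 in the shortest group (up to 924 bases) and 0.27 in the longest (from 8134 bases), and low dose over NASH ran the other way, from 0.37 to -0.32. Spink4, Zg16, Agr2, Tff3 and Retnlb fall in the shortest group. Relative to genes of like length, NASH over control stood at -2.69 for Clca1, -1.95 for Fcgbp, -2.93 for Retnlb, -1.82 for Spink4, -1.02 for Agr2, -0.68 for Zg16 and -0.43 for Tff3, and at 1.37 for Creb3l1 and 0.45 for Spdef, so the same 5 genes were 2-fold lower. For low dose over NASH the number 2-fold higher went from 6 to 4 on that scale, with Zg16 at 0.995 and Tff3 at 0.79. No protein-coding GENCODE transcript was matched to the Muc2 gene identifier, so Muc2 has no length here and was left out of this step.

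**Figure D4:**
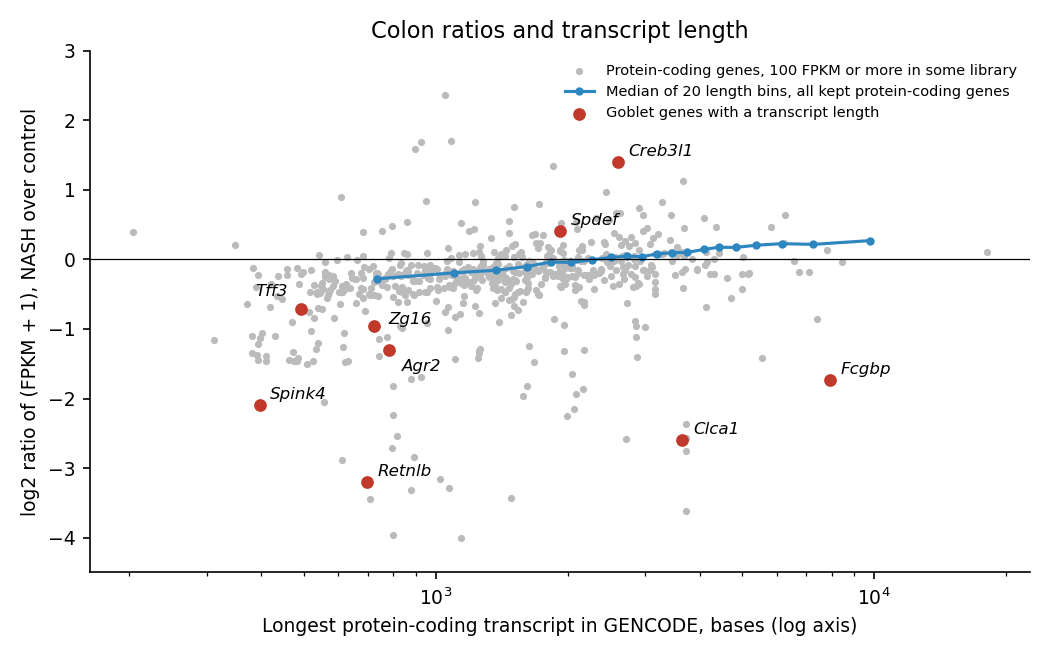
Log2 ratio of NASH over control in colon against the longest protein-coding transcript (log axis), for 613 genes of 100 FPKM or more (grey; 16 lie above the axis), the 9 goblet genes with a length (red) and the medians of 20 length groups of all kept genes (blue). The blue line climbs from -0.28 to 0.27, and Clca1 and Fcgbp lie far below it at long lengths.

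Other products of goblet cells also lay mostly below control in the NASH colon. Of 17 other goblet-associated genes listed, 16 were kept, 3 were 2-fold lower and none higher in NASH (median -0.55), and 15 of the 16 had a ratio below 0. Over all 15245 kept genes, 1.97% were 2-fold lower and 2.43% higher, and 6544 had a ratio below 0. Among the 616 protein-coding genes of 100 FPKM or more, 12.0% were 2-fold lower. In the group of shortest transcripts, where Ang4 falls (709 bases), the median of kept protein-coding genes was -0.28. The part of transcript length in the ratios of this list was not tested. The 3 lower genes of the goblet-associated list were Itln1, Ang4 and Reg4. Itln1, which encodes a lectin for microbial sugars, was at 72.5 FPKM in control and 3.55 in NASH (log2 -4.01). Ang4, a microbicidal ribonuclease, was at 2004 against 184 (-3.44), and Reg4, a secreted C-type lectin, at 494 against 54.8 (-3.15). Itln1 and Ang4 are also in the list of deep crypt secretory and Paneth cell markers. Lypd8, which binds bacterial flagella, was at 1937 against 1759 FPKM (-0.14) and Klk1, tissue kallikrein, at 1119 against 592 (-0.92). In the EV libraries 3 of the 16 (low dose) and 4 of the 16 (high dose) were 2-fold above NASH, against 0.905% and 1.1% of all kept genes. The fourth in the high dose library was Tff2, a trefoil peptide of the stomach, at 13.9 FPKM against 2.53, in the library that also held pancreatic enzyme RNA.

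Transmembrane mucins, which line the brush border of absorptive cells, had 2 of 5 kept genes 2-fold higher in NASH and none lower (median 0.41). The share 2-fold higher was 2.43% over all kept genes and 3.57% over the 616. Muc3 was at 281 FPKM in control, 716 in NASH, 381 in the low dose and 664 in the high dose library, and Muc3a at 8.81, 39.8, 8.89 and 24.4. These 2 genes are close relatives, and how reads divide between them is uncertain. Muc13 was at 304, 405, 314 and 336 FPKM, and Muc4 at 8.21, 7.05, 4.51 and 10.2. Control and the low dose library were the lower pair for Muc3, Muc3a and Muc13, as they were for Muc2 and Creb3l1. Muc3, with a longest transcript of 1853 bases, and Muc13, with 2969, fall in groups of middle length. The medians of these groups were -0.04 and 0.04 for NASH over control and -0.05 and 0.07 for high over low dose. Relative to genes of like length, Creb3l1 was at 1.37 for NASH over control and 1.21 for high over low dose. The part of transcript length in these mucin levels was not tested.

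Lists of genes that build and release mucin had medians near 0 for NASH over control, while Agr2, a member that folds MUC2, was at -1.30. Of 40 genes of mucin O-glycosylation 37 were kept, with 3 2-fold higher and 1 lower in NASH (median -0.05). Over all kept genes 2.43% were higher and 1.97% lower. The glycosylation genes higher with 5 FPKM or more were the core 2 branching enzymes Gcnt1 (4.66 FPKM in control, 14.7 in NASH) and Gcnt3 (44.6 and 96.2). The sialyltransferase St3gal6 was lower (65.0 and 29.7 FPKM). Gcnt1 was also 2-fold above control in both EV libraries (15.6 and 12.9 FPKM). Among 24 folding and unfolded protein response genes none was 2-fold apart for NASH over control (median -0.19), with the chaperone Hspa5 at -0.42, the disulfide isomerase P4hb at -0.38 and Hsp90b1 at -0.39. Genes of granule exocytosis and ion secretion also had 0 of 18 2-fold apart (median -0.13), among them the vesicle SNARE Vamp8 (-0.36), the chloride channel Ano1 (-0.44) and the chloride importer Slc12a2 (0.25). Against NASH, 0 genes of these 3 lists were 2-fold apart in either EV library.

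Factors of secretory differentiation had 0 of 12 genes 2-fold apart between NASH and control on the log2(FPKM + 1) scale (median 0.30). Foxa1 (4.80 FPKM in control, 9.82 in NASH, log2 0.90) and Sox9 (3.46 and 7.44, 0.92), both low genes, lay just inside the line there and past it in plain FPKM. Klf4, a factor of goblet differentiation, was at 55.0 and 63.1 FPKM, and Elf3, an epithelial ETS factor, at 84.7 and 115. Foxa1, at 3.68 FPKM (log2 -1.21), and Sox9, at 3.11 (-1.04), were the 2 of the list 2-fold lower in the low dose library than in NASH. The share 2-fold lower over all kept genes was 1.95% there. The Notch pathway, whose signal holds cells out of the secretory lineage, had 0 of 12 2-fold apart in any of these 3 comparisons, with Hes1 at 30.1, 25.7, 35.4 and 26.1 FPKM. Of mucus-processing enzymes 0 of 7 kept were 2-fold apart in the 3 comparisons. The meprin protease genes Mep1a and Mep1b stood at 0.64 and 0.53 for NASH over control. Tgm3, a transglutaminase that crosslinks the gel, stood at -0.68. Of 18 cytokine and receptor genes that act on goblet cells 10 were kept. Of these 1 was 2-fold lower in NASH than in control, where 1.97% of all kept genes were. It was Il18, an epithelial cytokine that affects goblet maturation (72.2 FPKM in control, 26.5 in NASH, 43.7 in the low dose and 33.5 in the high dose library). The type 2 cytokines Il4 and Il13 did not reach 1 FPKM in any colon library.

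**Figure D5:**
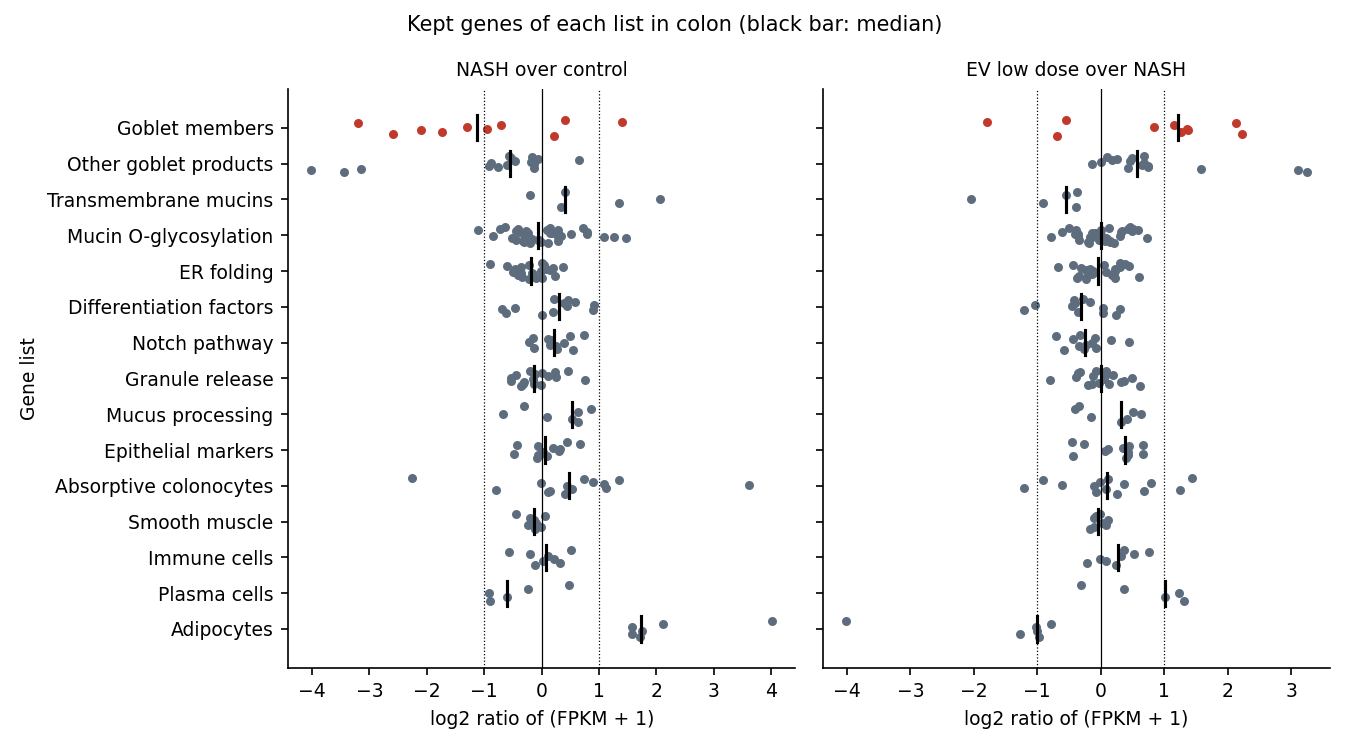
Log2 ratios of (FPKM + 1) of the kept genes of 15 lists, 1 point per gene and a black bar at the list median, for NASH over control (left) and EV low dose over NASH (right). Goblet members (red) have medians of -1.13 and 1.21, while glycosylation and folding genes centre near 0.

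Markers of absorptive colonocytes were not lower as a list: 4 of 14 were 2-fold higher and 1 lower in NASH (median 0.48). The shares over all kept genes were 2.43% higher and 1.97% lower. Guca2a, the guanylin gene, was at 1397 and 1392 FPKM in control and NASH. The lower gene was Cyp2c55, at 579 FPKM in control, 120 in NASH, 328 in the low dose and 161 in the high dose library. Among the 4 higher genes was Muc3, also counted above among transmembrane mucins. Relative to the median epithelial marker, the goblet members stood at -1.19 for NASH over control, 0.84 for low dose over NASH and 0.70 for high dose over NASH. The low dose value is smaller on that scale because epithelial markers themselves were higher there (median 0.38 over NASH). The number of members 2-fold above NASH in the low dose library was then 3 and not 6.

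The 5 genes whose course over the 4 colon libraries lay nearest to the median course of the members were Tpsg1, Rep15, Gmfg, Sval1 and Aadac, out of 9380 candidates of 5 FPKM or more. The measure was the Euclidean distance between log2(FPKM + 1) values centred on each gene's mean, from 0.126 to 0.181 for these 5. Rep15, a partner of the vesicle GTPase RAB15, was at 70.6, 35.3, 65.5 and 67.9 FPKM in control, NASH, low dose and high dose, and Sval1, a seminal vesicle antigen-like gene, at 275, 114, 251 and 242. Within the 10 members, Agr2 (0.412), Zg16 (0.438) and Tff3 (0.463) lay nearest to that course and Creb3l1 (2.16) farthest. Many genes can match a course over 4 points.

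In liver, which has no goblet cells, the 10 genes summed to between 2.65 and 4.48 FPKM, most of it Tff3. Clca1, Spink4, Agr2 and Retnlb were listed at 0 in all 4 liver libraries.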

How the data were processed

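RNA of mouse colon and liver was measured in 8 libraries, 1 for each tissue and group, with groups read from the sample titles. The values are FPKM as deposited by the authors, 1 column per library. Per the labels' protocols, TRIzol and RNeasy Plus columns gave the RNA, and the library kit was Illumina's stranded total RNA TruSeq (Gold). Per the submitters' processing notes, Trimmomatic 0.38, HISAT2, StringTie and mm10 were used, with no role or order stated. The sources used here give no read depth, strand setting or pooling.

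Gene identifiers were matched to symbols of GRCm38.p6 (45679 matched, 98 not). The ratios are differences of log2(FPKM + 1), a scale that shrinks those of low genes. Genes were kept at 1 FPKM in at least 1 colon library. With 1 library per group no test was run. The 10 members and 24 gene lists were chosen with earlier results of these data known. One list (seminal vesicle and prostate), the length step and the 100 FPKM background were added after values were seen. All members are named. Of each list the text could name the 3 genes with the highest mean FPKM and, per comparison, up to 4 that were 2-fold apart with 5 FPKM or more, largest first. The 5 genes nearest in course were named too. Epcam, Il4, Il13, Muc5ac, Muc5b and Muc6 were named outside that rule, after their values were seen. The code was tested on simulated libraries. Python 3.11.15, numpy 2.4.6, pandas 2.3.3 and matplotlib 3.10.9 were used.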

Additional observations from a re-analysis of the deposited data

Results flagged for a closer look

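Of the goblet genes listed at 0 in the control liver, 2 reached 0.1 FPKM in another liver library. Creb3l1 was listed at 0 FPKM in the control liver and was at 0.424 in the NASH liver, 0.202 in the low dose and 0.146 in the high dose liver. Zg16 was at 0.139 FPKM in the low dose liver and listed at 0 in the other 3 liver libraries. Muc2, Fcgbp and Spdef were also listed at 0 in the control liver and had values of at most 0.0648 FPKM in the others. The 4 values of Creb3l1 and Zg16 are far below 1 FPKM, with 1 library each, and the number of reads behind them is unknown.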

How the results depend on the processing

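No error can be set beside these values, so a member ratio was counted as moved when it differed from the reported one by more than 0.266 on the log2 scale, the spread between the 2 EV colon libraries over all kept genes. Of the member ratios recomputed under other settings 430 moved by less and 44 by more, and no ratio of 2-fold or more changed sign. Most settings shift all members of a comparison by nearly the same amount, so these ratios are not separate checks. The shifts were smaller than a log2 ratio of 1, so a ratio of 2-fold or more could not change sign. The median of the members kept its sign for NASH over control, low dose over NASH and high dose over NASH in each setting tried, and its small value for high over low dose (-0.10) took the other sign with same-sum scaling (0.11), relative to epithelial markers (0.04) and without accessory gland genes (0.03). With a pseudocount of 5 FPKM, 0 members were 2-fold higher for NASH over control, and 0 for high over low dose, since Creb3l1 is a low gene. Relative to epithelial markers the median was 0.84 for low dose over NASH, with 3 members 2-fold higher and 2 lower (Muc2 and Creb3l1). For low dose over control it was -0.80 on that scale, with 2 lower. Scaled to protein-coding FPKM without seminal vesicle and prostate genes, low dose over NASH had a median of 0.94. With libraries scaled to the same sum, 1 member was 2-fold higher for high dose over control. Over the other filters, pseudocounts and scalings the number of all genes 2-fold higher and lower for NASH over control (371 and 300) ran from 122 to 847 and from 144 to 521. For low dose over NASH (138 and 297) they ran from 50 to 302 and from 80 to 773, and for high dose over NASH (167 and 218) from 67 to 300 and from 75 to 449. Leaving out a replicate was not possible with 1 library per group. No paired analysis was possible because each group has 1 library.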

Other observations

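Markers of deep crypt secretory and Paneth cells were far apart between the NASH and control colon in both directions, with 3 of 9 kept genes 2-fold higher and 5 lower. The shares over all kept genes were 2.43% higher and 1.97% lower. The lower markers include Ang4 and Itln1, which were also counted above among other goblet products. Mptx1, a pentraxin of the gut epithelium, was at 12617 FPKM in control, 806 in NASH, 7702 in the low dose and 6769 in the high dose library. Reg3b, an antibacterial lectin, was instead highest in NASH, at 42.1, 684, 107 and 8.70 FPKM, and so was its relative Reg3g, at 15.8, 41.95, 7.79 and 2.996. Among enteroendocrine markers 1 of 9 was 2-fold lower in NASH, Insl5, a peptide of colonic L cells, at 43.7, 12.9, 24.3 and 32.8 FPKM.

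Plasma cell markers had 0 of 5 2-fold apart for NASH over control (median -0.59) and 3 of 5 2-fold higher for low dose over NASH (median 1.02). For low dose over NASH, 0.905% of all kept genes were 2-fold higher. The IgA heavy chain gene Igha was at 1608, 851, 1998 and 1487 FPKM and the joining chain gene Jchain at 315, 168, 418 and 303, so NASH was the lowest library for both.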
